A study of Mus musculus with 8 samples.

Results

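The genes described here are 10 secreted factors with roles in blood or lymphatic vessel growth, namely *Vegfa*, *Vegfb*, *Vegfc*, *Vegfd*, *Pgf*, *Adm*, *Angpt1*, *Angpt2*, *Angptl4* and *Angptl2*. They were taken by gene symbol from a table of 55414 genes, and all 10 had a row. Expression was measured by RNA-seq of total RNA in 8 libraries of B16F10 cells, a mouse melanoma line, with 2 libraries in each of 4 groups. WT cells and CypD KO cells were kept at 21% O2 for 24 h. CypD, or cyclophilin D, is a mitochondrial matrix protein that regulates the permeability transition pore and is encoded by *Ppif*, and the CypD KO cells were stably transfected clones made with CRISPR/Cas9 and selected with puromycin. CypD KO therefore differed from WT in CypD, in transfection and in selection, and these cannot be told apart. Control cells carried empty pcDNA and CypD OE cells carried pcDNA with CypD, and resistant clones of each were selected with G418. Both were then kept at 1% O2 for 24 h. CypD OE thus differed from Control in the insert and in the clones selected, and these cannot be told apart. Control therefore differed from WT in oxygen, in vector and in selection, and these cannot be told apart. WT libraries entered both the CypD KO minus WT and the Control minus WT comparison, and Control libraries entered both Control minus WT and CypD OE minus Control. Whether the 2 libraries of a group came from separate cultures is not stated, so the p-values measure the spread between these libraries, which may be technical.

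Values are TPM, transcript abundances that are scaled to the same total in each library and take account of transcript length. They were tested as log2(TPM + 1) with limma in the 13526 genes that reached 1 TPM in 2 or more libraries, and a gene was called at an adjusted p under 0.05. Depth was estimated from the steps between low values, and 1 fragment on 1000 effective bases was worth 0.082 to 0.0975 TPM. On the log scale the changes of genes with low TPM are understated. Of the 10 factors, 7 passed that filter, and *Vegfd*, *Angpt1* and *Angptl4* did not because they were below 1 TPM in every library. *Adm* and *Pgf* reached 1 TPM in both libraries of a group only in CypD KO and Control, where they were high, so counts and medians over the 7 are descriptions. *Ppif* had 50.7 and 50.0 TPM in the WT libraries but 10.4 and 12.1 TPM in those of CypD KO. Control libraries held 44.6 and 42.3 TPM of it, and the overexpressing cells 50.3 and 49.3 TPM, only 1.15-fold higher on average (log2 fold change 0.19, adjusted p = 0.0794), and the latter are therefore called the libraries labelled CypD OE. A panel of 9 melanocyte markers was above 1 TPM in all groups and summed to between 16477 and 24603 TPM, whereas 9 endothelial markers summed to between 0.61 and 4.26 TPM, with *Cdh5*, *Emcn*, *Cldn5* and *Tie1* listed at 0 in every library. *Vwf*, the only endothelial marker tested, was higher in Control than in WT (log2 fold change 1.05, limma adjusted p = 0.0243). It was lower in the libraries labelled CypD OE than in Control (-1.36, adjusted p = 0.00552). In CypD KO against WT it was not called (0.14, adjusted p = 0.677). A panel of 7 fibroblast markers was highest in Control, at 74.4 and 76.8 TPM in sum, and lowest in the libraries labelled CypD OE, at 25.1 and 27.0 TPM, with *Dcn* listed at 0 throughout. It summed to between 50.7 and 53.5 TPM in WT and between 54.1 and 55.7 TPM in CypD KO, but its 3 tested members differed there in opposite directions, with *Postn* higher (8.06 to 33.0 TPM) and *Col1a2* (7.95 to 1.63 TPM) and *Fbln1* (35.4 to 19.2 TPM) lower in CypD KO. A panel of 6 macrophage markers summed to between 1.87 and 2.28 TPM in CypD KO and to less than 1 TPM in every other library, with *Adgre1*, *Cd14* and *Tyrobp* listed at 0 throughout and *Lyz2* at 1.85 and 1.80 TPM in CypD KO. The part of these markers in the differences of the factors was not tested. In bulk RNA, fewer cells of a type and less RNA per cell cannot be told apart.

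VEGF family ligands act on receptor tyrosine kinases of endothelial cells. VEGFA is the main driver of new vessel growth through VEGFR2 and is a classic target of the hypoxia-inducible factors HIF-1 and HIF-2, which accumulate when oxygen falls and the prolyl hydroxylases stop marking them for degradation by VHL. PlGF, the product of *Pgf*, and VEGFB bind VEGFR1, and VEGFC and VEGFD bind VEGFR3 and drive lymphatic growth. Adrenomedullin, the product of *Adm*, is a peptide that dilates vessels and stabilises the endothelium. Angiopoietin-1 activates the TIE2 receptor and angiopoietin-2 can oppose it. ANGPTL4 inhibits lipoprotein lipase, and ANGPTL2 is a secreted glycoprotein associated with inflammation and vessel growth.

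HIFs bind DNA at a short core that can be read as ACGTG or GCGTG. The 1000 bases before each annotated start were searched on both strands of GRCm39 for ACGTG, for GCGTG and for TACGTG, the last of which contains ACGTG. Of 21614 protein-coding promoters of this length, 43.9% held ACGTG, 54.9% held GCGTG and 11.2% held TACGTG. Among the 10 factors, TACGTG was found in *Vegfa*, *Pgf* and *Angptl4* only. *Vegfa* (ENSMUSG00000023951, chromosome 17, 46327919 to 46343309, minus strand), *Pgf* (ENSMUSG00000004791, chromosome 12, 85213409 to 85224564, minus strand) and *Adm* (ENSMUSG00000030790, chromosome 7, 110226858 to 110229027, plus strand) are shown because they changed most, *Angptl2* (ENSMUSG00000004105, chromosome 2, 33105946 to 33138252, plus strand) because its pattern differed from theirs, and *Angptl4* (ENSMUSG00000002289, chromosome 17, 33992724 to 34000804, minus strand) because it held TACGTG while being nearly silent. Each stretch is written on the strand of its gene, and capitals mark the match or its reverse complement.
Vegfa, chr17:46344197-46344251, match 918 bases before the start: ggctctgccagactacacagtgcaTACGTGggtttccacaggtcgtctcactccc
Pgf, chr12:85224620-85224674, match 85 bases before the start: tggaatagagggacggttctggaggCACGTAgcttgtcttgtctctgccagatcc
Adm, chr7:110226060-110226114, match 773 bases before the start: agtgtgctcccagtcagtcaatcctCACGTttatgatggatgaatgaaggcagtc
Angptl2, chr2:33105327-33105381, match 594 bases before the start: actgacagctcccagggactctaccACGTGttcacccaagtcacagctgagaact
Angptl4, chr17:34000930-34000984, match 155 bases before the start: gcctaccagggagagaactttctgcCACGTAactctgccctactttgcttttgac
For GCGTG, *Vegfa* had 5 matches, *Adm* had 2 and *Angptl4* had 3, whereas *Pgf* and *Angptl2* had 0. *Pgf* had 3 further matches to ACGTG, *Angptl4* a further one to TACGTG and *Angptl2* a further one to ACGTG, on the other strand of the palindrome shown. These are matches of letters and were not tested as binding sites.

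The first question was which of these factors differed between CypD KO clones and WT cells at 21% O2. In CypD KO, *Vegfa*, *Pgf*, *Adm* and *Angptl2* were higher than in WT, and *Vegfb*, *Vegfc* and *Angpt2* were not called. Thus 4 of the 7 tested factors were higher and 0 were lower, against a background in which 48.4% of all tested genes were called, 30.1% higher and 18.4% lower. On the log2 scale the median change was 1.41 over the 7 factors and 0.09 over all genes tested. The second question was whether the libraries labelled CypD OE differed from Control at 1% O2, where insert and clone cannot be told apart. In the libraries labelled CypD OE, *Vegfa*, *Pgf*, *Adm* and *Vegfb* were lower than in Control and *Angptl2* was slightly higher, 4 lower and 1 higher against a background of 37.4% of genes called, 18.3% lower and 19.0% higher. The corresponding medians were -0.22 over the factors and 0.0021 over all genes. Control against WT had 5 higher and 0 lower, with 24.2% of genes called, 12.1% in each direction, and medians of 0.37 and 0.01. The 5 became 3 without WT replicate 1 or either Control library and 2 in a fit of the 4 libraries compared, and the genes called fell from 1634 higher and 1635 lower to between 939 and 1073 higher and between 983 and 1082 lower when any one of the 4 was left out. The CypD KO and WT libraries did not overlap for 6 of the 7 factors, those of CypD OE and Control for 6, and those of Control and WT for 6, and the same held for 74.0%, 68.7% and 62.0% of all genes tested. The remaining 3 pairs of groups differ in oxygen, clone or vector at once and serve only to order the levels. CypD KO had 4 factors higher and 1 lower than Control (44.0% of all genes were called, 27.4% higher and 16.5% lower), the libraries labelled CypD OE had 1 higher and 0 lower than WT (27.7%, 14.0% and 13.7%), and 0 higher and 4 lower than CypD KO (48.9%, 19.3% and 29.6%).

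**Figure D1:**
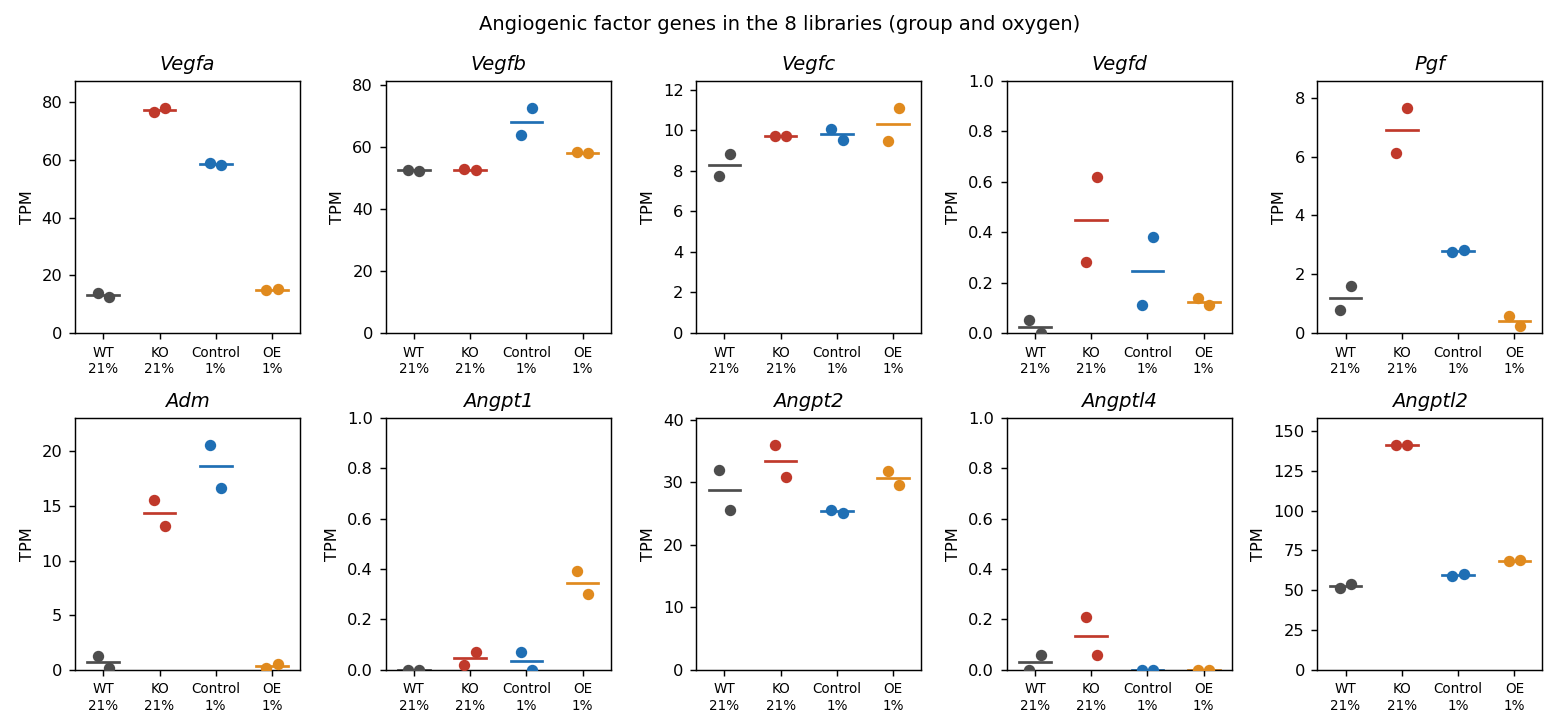
TPM of the 10 factors in each of the 8 libraries, with each library drawn as a point and each group mean as a line, and each panel with its own vertical axis. *Vegfa*, *Pgf* and *Adm* are high in CypD KO and Control and low in WT and CypD OE, *Angptl2* is high in CypD KO only, and *Vegfd*, *Angpt1* and *Angptl4* stay below 1 TPM.

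*Vegfa* had 13.98 and 12.58 TPM in the WT libraries, 76.53 and 77.91 TPM in those of CypD KO, 58.82 and 58.33 TPM in those of Control, and 14.87 and 15.09 TPM in those labelled CypD OE. No library of CypD KO or Control came near any library of the other groups, and replicates differed little. The mean TPM was 5.81-fold higher in CypD KO than in WT (adjusted p = 1.17e-06) and 4.41-fold higher in Control than in WT (log2 fold change 2.06 ± 0.06 SE, adjusted p = 5.47e-06). In the libraries labelled CypD OE it was 0.256 times the Control mean (adjusted p = 3.27e-06). CypD KO, though kept at 21% O2, exceeded the 1% O2 Control by 1.32-fold (log2 fold change 0.39, adjusted p = 0.0021), a comparison that crosses oxygen, clone and vector. The order of group levels was therefore CypD KO, Control, CypD OE and WT, and the lowest pair did not differ past the threshold (log2 fold change 0.16 with a 95% interval of 0.02 to 0.31, adjusted p = 0.0885).

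*Pgf*, which encodes a ligand that binds VEGFR1 but not VEGFR2, moved in the same directions at a lower level. It had 0.79 and 1.60 TPM in the WT libraries, 6.13 and 7.65 TPM in those of CypD KO, 2.74 and 2.81 TPM in those of Control, and 0.57 and 0.24 TPM in those labelled CypD OE. None of these ranges overlapped. The mean in CypD KO was 5.77-fold that in WT (log2 fold change 1.86 ± 0.23 SE, adjusted p = 6.30e-04) and 2.48-fold that in Control (adjusted p = 0.00881, or 0.0577 without CypD KO replicate 2). In the libraries labelled CypD OE it was 0.146 times the Control mean (log2 fold change -1.44, adjusted p = 0.00307). The 2.32-fold higher mean in Control than in WT (log2 fold change 0.81 ± 0.23 SE, adjusted p = 0.0429) was weak, since without WT replicate 1 the difference was 0.54 with an adjusted p of 0.167, and without either Control library the adjusted p was 0.13 or 0.14.

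*Vegfb* (ENSMUSG00000024962, chromosome 19, 6958447 to 6965127, minus strand), whose product binds VEGFR1, was expressed at 52.28 to 52.74 TPM in all 4 libraries kept at 21% O2. The log2 difference between CypD KO and WT was 0.01 with a 95% interval of -0.14 to 0.16 (adjusted p = 0.938), and -0.07 after median-of-ratios rescaling. In Control it was at 63.70 and 72.54 TPM, 1.3-fold above WT (log2 fold change 0.37, adjusted p = 0.00704), and in the libraries labelled CypD OE at 58.23 and 58.02 TPM. The difference of the latter from Control, -0.22 on the log2 scale (adjusted p = 0.0297), was -0.13 with an adjusted p of 0.103 without Control replicate 2, the highest library, and the adjusted p was 0.101 or 0.107 without either CypD OE library.

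*Vegfc* (ENSMUSG00000031520, chromosome 8, 54530257 to 54640131, plus strand), the lymphatic ligand, ranged only from 7.74 to 11.10 TPM over the 8 libraries. It was not called in any of the 6 comparisons of group pairs, and its difference between CypD KO and WT was 0.21 on the log2 scale (95% interval -0.04 to 0.46, adjusted p = 0.147). *Vegfd* (ENSMUSG00000031380, chromosome X, 163156240 to 163185646, plus strand), the other lymphatic ligand, had 0.05 and 0.00 TPM in the WT libraries, 0.28 and 0.62 TPM in those of CypD KO, 0.11 and 0.38 TPM in those of Control, and 0.14 and 0.11 TPM in those labelled CypD OE. The highest of these is worth about 13.4 fragments, so that differences of *Vegfd* were hardly measurable at this depth.

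**Figure D2:**
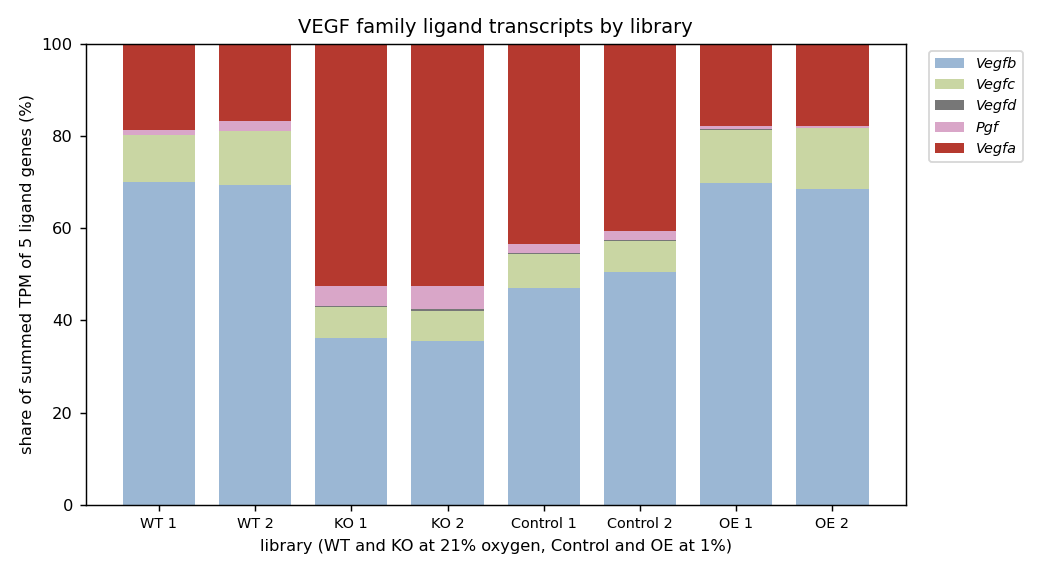
Share of the summed TPM of the 5 VEGF family ligands taken by each ligand, in percent, in each of the 8 libraries. *Vegfb* takes between 68.61% and 69.98% of the sum in WT and CypD OE, whereas *Vegfa* takes over 52% in CypD KO.

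These differences changed which ligand dominated the family. The summed TPM of *Vegfa*, *Vegfb*, *Vegfc*, *Vegfd* and *Pgf* was 75.2 ± 0.113 (SD, n = 2) in WT, 147 ± 2.21 in CypD KO, 139.5 ± 5.77 in Control and 83.9 ± 0.898 in the libraries labelled CypD OE. In WT, *Vegfb* made up 69.98% and 69.42% of that sum and *Vegfa* 18.6% and 16.7%. In CypD KO, *Vegfa* made up 52.63% and 52.45% and *Vegfb* 36.27% and 35.45%. In Control the *Vegfa* share was 43.43% and 40.62%, below the *Vegfb* share of 47.04% and 50.52%. In the libraries labelled CypD OE the *Vegfa* share was 17.85% in both, inside the WT range. *Vegfa* was thus the most abundant family transcript in CypD KO only, and *Vegfb* in the other groups.

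*Adm* had 1.24 and 0.16 TPM in the WT libraries, 15.55 and 13.15 TPM in those of CypD KO, 20.61 and 16.67 TPM in those of Control, and 0.14 and 0.53 TPM in those labelled CypD OE. It was near the detection limit in WT and in the libraries labelled CypD OE, where the values correspond to about 2.0 to 16.5 fragments, against 172 to 253 fragments in the other groups. The mean was 20.5-fold higher in CypD KO (adjusted p = 2.36e-04) and 26.6-fold higher in Control than in WT (log2 fold change 3.6 ± 0.32 SE, adjusted p = 5.31e-04). In the libraries labelled CypD OE it was 0.018 times the Control mean (log2 fold change -3.89 ± 0.32 SE, adjusted p = 1.85e-04). The folds against WT depend on its low libraries, and the log2 fold change of CypD KO was 3.25 with both, 2.77 without WT replicate 2 and 3.72 without WT replicate 1. CypD KO and Control did not differ past the threshold (log2 difference -0.35 with a 95% interval of -1.11 to 0.40, adjusted p = 0.41), nor did the libraries labelled CypD OE and WT (-0.29 with an interval of -1.04 to 0.47, adjusted p = 0.547). Both intervals are wide. The lncRNA *Gm28863* overlaps *Adm* on the opposite strand. It had 0.00 and 0.41 TPM in the WT libraries, 4.80 and 2.35 TPM in those of CypD KO, 5.43 and 3.52 TPM in those of Control, and 0.00 TPM in both labelled CypD OE. Overlap was taken from whole gene bodies and not from exons, and the use of strand in counting is not stated. Whether reads of *Adm* and *Gm28863* were mixed is therefore not known. The same holds for *Trpt1* (1.08 to 3.53 TPM), *Mcph1* (15.1 to 20.5 TPM) and *Ralgps1* (2.04 to 3.09 TPM), which overlap *Vegfb*, *Angpt2* and *Angptl2*, and for the lncRNAs *Gm65021*, *Gm64018*, *Gm72687* and *Gm17473*, which overlap *Vegfa*, *Vegfc*, *Adm* and *Angpt1*. Of the last 4, *Gm17473* was listed at 0 in every library and the others had no row, so no values of them are known.

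**Figure D3:**
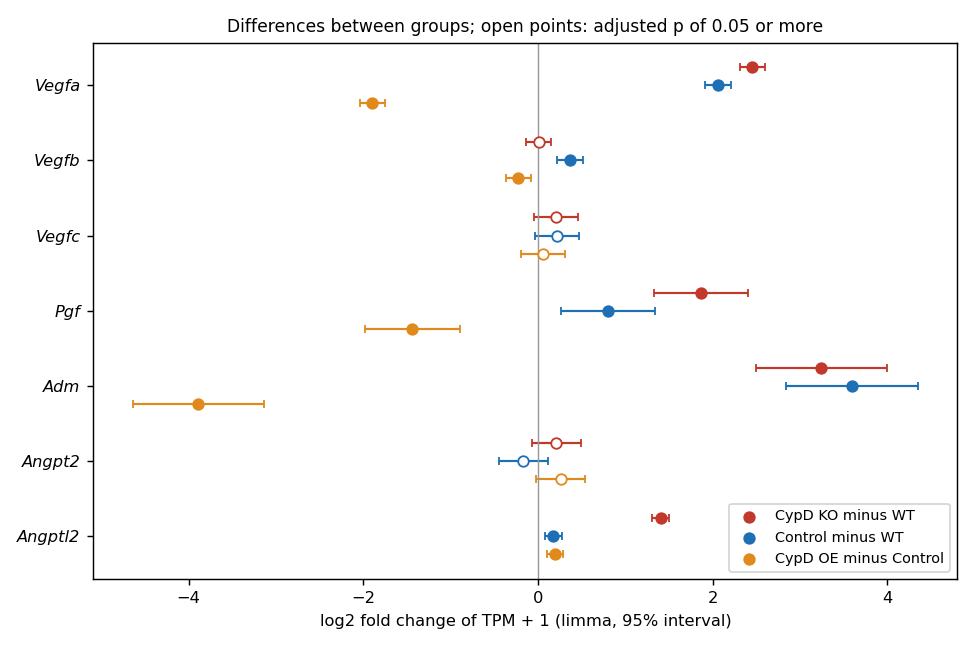
Log2 fold changes of TPM + 1 for the 7 tested factors in the comparisons CypD KO minus WT, Control minus WT and CypD OE minus Control, with 95% intervals from limma as bars and open points for an adjusted p of 0.05 or more. *Adm* has the largest differences in all comparisons drawn, and *Angptl2* is the only factor above 1 in CypD KO and under 0.2 in Control.

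Of the angiopoietins, *Angpt2* (ENSMUSG00000031465, chromosome 8, 18739202 to 18791603, minus strand) was expressed and *Angpt1* (ENSMUSG00000022309, chromosome 15, 42288058 to 42540417, minus strand) was hardly detected. *Angpt2* had 32.01 and 25.54 TPM in the WT libraries, 35.99 and 30.75 TPM in those of CypD KO, 25.61 and 25.06 TPM in those of Control, and 31.72 and 29.49 TPM in those labelled CypD OE. The WT range overlapped those of all other groups, and the difference between CypD KO and WT (log2 0.21, adjusted p = 0.184, or 0.37 and 0.0409 without WT replicate 1) and that between CypD OE and Control (0.26, adjusted p = 0.127) were not called. CypD KO was above Control (0.38, adjusted p = 0.0375), but the adjusted p was 0.189 without CypD KO replicate 1 and 0.104 or 0.127 without either Control library. *Angpt1* was at 0.00 TPM in both WT libraries, 0.02 and 0.07 TPM in CypD KO, 0.07 and 0.00 TPM in Control, and 0.39 and 0.30 TPM in those labelled CypD OE. The highest value is worth about 19.5 fragments.

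*Angptl2* had 51.35 and 53.99 TPM in the WT libraries, 141.43 and 141.12 TPM in those of CypD KO, 59.09 and 60.31 TPM in those of Control, and 68.06 and 68.90 TPM in those labelled CypD OE. The 4 ranges did not overlap, and CypD KO stood far above the other 3 groups. Its mean there was 2.68-fold that in WT (log2 fold change 1.41 ± 0.04 SE, adjusted p = 1.68e-06) and 2.37-fold that in Control (adjusted p = 2.98e-06). Unlike *Vegfa*, *Pgf* and *Adm*, it exceeded Control in the libraries labelled CypD OE, by 1.15-fold (log2 fold change 0.19, adjusted p = 0.00904), and it was also 1.3-fold above WT there (adjusted p = 0.00102). Control was 1.13-fold above WT (log2 fold change 0.18, adjusted p = 0.0202), a call that was lost when WT replicate 1 or either Control library was left out. *Angptl4*, a hypoxia-induced gene in many cell types, had 0.00 and 0.06 TPM in the WT libraries, 0.21 and 0.06 TPM in those of CypD KO, and 0.00 TPM in all Control and CypD OE libraries. The highest value is worth about 7.6 fragments.

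The receptors through which these ligands signal in endothelium were mostly not detected in the melanoma cells. *Flt1* and *Kdr*, which encode VEGFR1 and VEGFR2, did not exceed 0.03 TPM in any library, and *Flt4*, which encodes VEGFR3, ranged from 0.07 to 0.32 TPM. The co-receptors were expressed. *Nrp2*, a neuropilin that binds VEGFC and VEGFA, rose from a mean of 120 TPM in WT to 180 TPM in CypD KO (log2 fold change 0.58, adjusted p = 3.72e-05) and was higher too in libraries labelled CypD OE than in Control (0.38, adjusted p = 3.59e-04). *Nrp1* was higher in CypD KO than in WT (0.41, adjusted p = 0.00305) and was not called at 1% O2 (-0.17, adjusted p = 0.0996). Of 5 VEGF receptors listed, the 2 tested were higher in CypD KO (30.1% of all genes were), 1 was called higher in the libraries labelled CypD OE (19.0%), and 0 were called in Control against WT (24.2%).

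VEGFC and VEGFD are made as precursors and cut by proteases. Of 6 genes listed for this step, 3 were tested, and *Adamts14* and *Furin* were higher in CypD KO (30.1% of all genes were). *Adamts14*, a procollagen N-proteinase that can also process VEGFC, was at a mean of 1.90 TPM in WT and 16.1 TPM in CypD KO (log2 fold change 2.56, adjusted p = 1.31e-05). *Furin*, a proprotein convertase, was at 13.5 and 42.2 TPM, respectively (1.59, adjusted p = 8.53e-05). Neither was called in Control against WT or in CypD OE against Control, whereas *Vegfa* was called in both. *Ccbe1* and *Adamts3*, a cofactor and a protease of VEGFC activation, were listed at 0 in every library.

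For adrenomedullin, 4 of 7 listed receptor and processing genes were tested, and in CypD KO 1 was higher and 2 were lower than in WT. Among all genes tested, 30.1% were called higher there and 18.4% lower. *Pam*, the enzyme that amidates peptides including adrenomedullin, rose from 15.9 to 45.1 TPM (log2 fold change 1.46, adjusted p = 2.70e-04) and was higher too in libraries labelled CypD OE than in Control (0.56, adjusted p = 0.0240). *Ramp2*, which makes the calcitonin receptor-like receptor specific for adrenomedullin, was lower, at 1.17 TPM against 3.39 TPM (-1.08, adjusted p = 0.0273). *Ackr3*, a scavenging receptor of chemokines and adrenomedullin, was also lower, at 1.41 TPM against 3.76 TPM (-0.98, adjusted p = 0.00309). *Calcrl*, the receptor itself, ranged from 0.88 to 4.46 TPM, with both extremes in Control, and was not called, and *Ramp3* did not exceed 0.38 TPM. The call of *Pam* in the libraries labelled CypD OE was lost without Control replicate 2 or either CypD OE library, and that of *Ramp2* in CypD KO without either WT library or CypD KO replicate 2.

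Among angiopoietin partners, *Angpt4*, a TIE2 ligand, had 4.99 and 5.09 TPM in CypD KO, against 0 listed in either WT library, while it did not exceed 0.13 TPM in Control and CypD OE. It passed the filter only through CypD KO, so no p is given. It was the only tested gene of the 4 listed. *Tek*, which encodes TIE2, did not exceed 0.06 TPM and *Tie1* was listed at 0. Of 9 genes listed as other angiopoietin-like factors and partners of lipoprotein lipase, only *Lmf1*, a lipase maturation factor, was tested, and *Lpl* and *Gpihbp1* were listed at 0 in every library. *Lmf1* was called higher in Control than in WT (log2 fold change 0.55, adjusted p = 0.0201) and lower in the libraries labelled CypD OE than in Control (-0.59, adjusted p = 0.0100). The first call was lost without WT replicate 2 or either Control library, and the second without Control replicate 1 or CypD OE replicate 2.

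**Figure D4:**
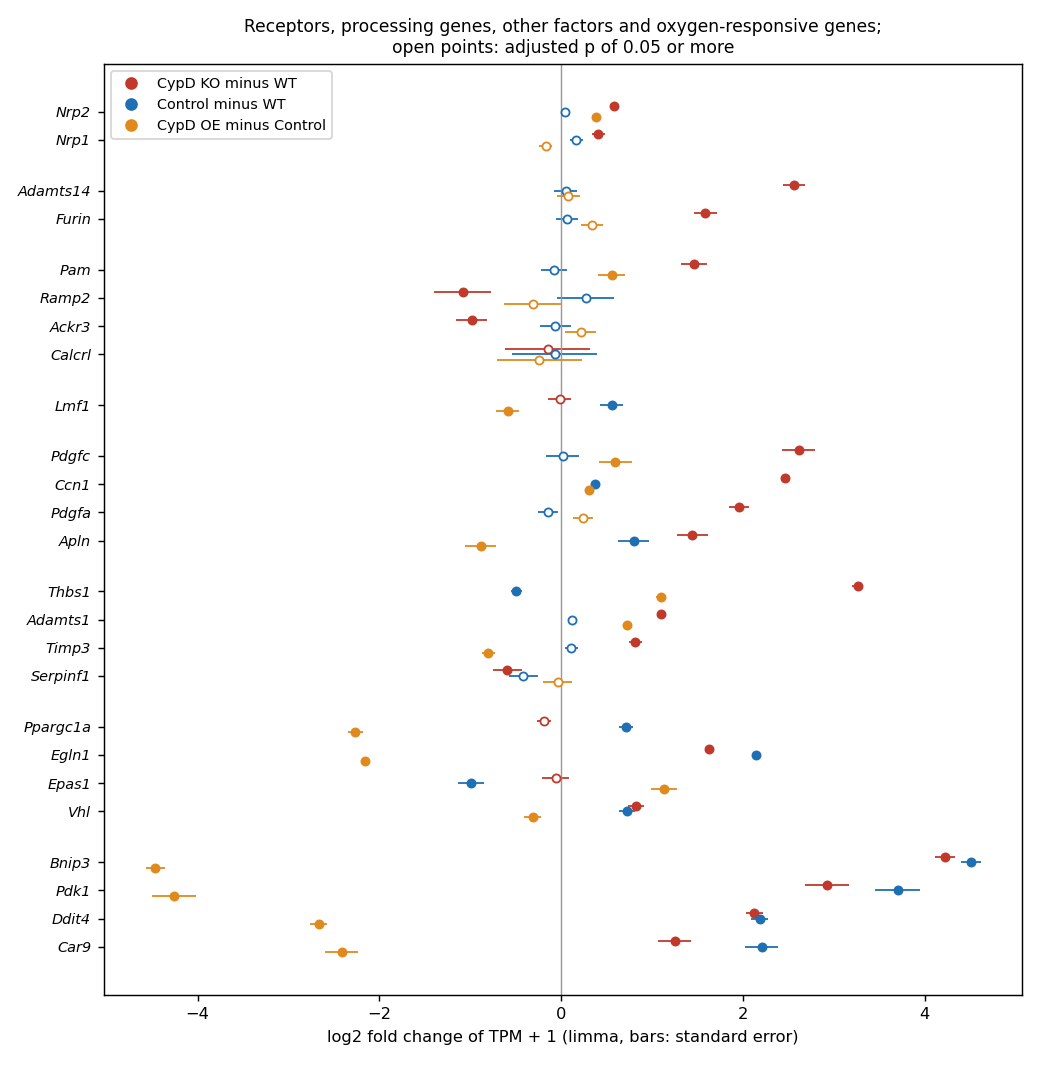
Log2 fold changes of TPM + 1, with standard errors from limma, of the named receptor, processing, growth factor, inhibitor, regulator and oxygen-responsive genes in 3 comparisons, with open points for an adjusted p of 0.05 or more. *Adamts14*, *Furin* and *Pam* are high in CypD KO minus WT with Control minus WT near 0, while *Bnip3*, *Pdk1*, *Ddit4* and *Car9* are high in both and low in CypD OE minus Control. *Pdgfc* and *Apln* passed the filter only through CypD KO, so their filled or open points are not to be read as tests. *Angpt4* is not drawn.

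Of 20 other pro-angiogenic factors listed, 10 were tested. In CypD KO 6 were higher and 1 was lower than in WT, in the libraries labelled CypD OE 5 were higher and 1 was lower than in Control, and in Control 2 were higher and 1 was lower than in WT. Of all genes, 48.4%, 37.4% and 24.2% were called in these comparisons. Because *Pdgfc*, *Apln* and *Tgfa* passed the filter only through CypD KO, and *Fgf2* only through CypD OE, these counts are descriptions. The 5 became 2 or 3 when any one Control or CypD OE library was left out, and the 1 lower in CypD KO became 0 without either WT library or CypD KO replicate 2. *Ccn1*, a matricellular integrin ligand, was at 38.0 TPM in WT and 214 TPM in CypD KO (log2 fold change 2.46, adjusted p = 6.57e-07). *Pdgfa*, a mitogen for mesenchymal cells, was at 13.4 and 54.8 TPM (1.95, adjusted p = 2.29e-05), and *Pdgfc*, a related ligand, at 0.095 and 5.73 TPM. *Pdgfc* passed the filter only through CypD KO, so no p is given for it. *Apln*, the apelin ligand of endothelial tip cells, also passed the filter only through CypD KO, so no p is given for it either. Mean *Apln* was 0.155 TPM for WT, 2.14 TPM for CypD KO, 1.01 TPM for Control and 0.085 TPM for CypD OE. The *Apln* values of WT were worth only about 6.0 and 4.0 fragments, and those of CypD OE about 2.2 and 4.0. Its log2 fold changes had the signs of those of *Vegfa*, at 1.44 (CypD KO minus WT), 0.80 (Control minus WT) and -0.89 (CypD OE minus Control). Counted above as higher in Control than in WT, *Apln* was no longer called there without either WT library or Control replicate 2. That difference ranged from 0.69 to 0.90 when any one library of the 2 groups was left out.

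Of 15 inhibitors of angiogenesis listed, 8 were tested, of which 4 were higher and 1 was lower in CypD KO, 2 were higher and 2 were lower in the libraries labelled CypD OE, and 1 was higher and 1 was lower in Control against WT, where 48.4%, 37.4% and 24.2% of all genes were called. A call counted here was lost in each comparison when certain single libraries were left out. *Thbs1*, thrombospondin-1, was at 8.61 TPM in WT and 91.1 TPM in CypD KO (log2 fold change 3.26 ± 0.06 SE, adjusted p = 6.54e-07), a larger difference on that scale than that of *Vegfa*. It was lower in Control than in WT (-0.50, adjusted p = 0.00195) and higher in the libraries labelled CypD OE than in Control (1.10, adjusted p = 3.40e-05), both opposite to *Vegfa*. *Adamts1*, a protease that can sequester VEGFA, was higher in CypD KO (1.09, adjusted p = 5.67e-06) and in the libraries labelled CypD OE (0.72, adjusted p = 5.31e-05). *Timp3*, which blocks VEGFA binding to VEGFR2, was higher in CypD KO (0.82, adjusted p = 1.82e-04) and lower in the libraries labelled CypD OE (-0.80, adjusted p = 3.33e-04). *Serpinf1*, which encodes the inhibitor PEDF, was lower in CypD KO (-0.59, adjusted p = 0.0199), a call lost without WT replicate 2 or either CypD KO library.

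Among 15 listed regulators of *Vegfa* and *Angptl4* transcription, 12 were tested. In CypD KO 4 were higher and 4 were lower, in the libraries labelled CypD OE 1 was higher and 5 were lower, and in Control 5 were higher and 2 were lower than in WT, with the same 48.4%, 37.4% and 24.2% of all genes called. In each of these comparisons some of the calls counted were lost when a single library was left out. *Egln1*, an oxygen-sensing prolyl hydroxylase that HIF itself induces, was at a mean of 22.0 TPM in WT, 69.9 TPM in CypD KO (log2 fold change 1.62, adjusted p = 1.87e-06), 100.8 TPM in Control (2.15, adjusted p = 2.31e-06) and 21.8 TPM in those labelled CypD OE (-2.16 against Control, adjusted p = 9.15e-07). *Vhl* was higher in CypD KO (0.83, adjusted p = 3.86e-04) and Control (0.72, adjusted p = 0.00222) than in WT. *Epas1*, which encodes HIF-2 alpha, was not called in CypD KO against WT (-0.06, adjusted p = 0.751). It moved the other way in Control against WT and in CypD OE against Control. In Control it was lower than in WT (-0.99, adjusted p = 0.00386). In the libraries labelled CypD OE it was higher than in Control (1.13, adjusted p = 0.00127). *Hif1a*, which encodes HIF-1 alpha, was not called in CypD KO (0.08, adjusted p = 0.240) or Control (-0.09, adjusted p = 0.262) against WT. In the libraries labelled CypD OE it was at 98.6 TPM, lower than the 136.6 TPM in Control (-0.47, limma adjusted p = 6.09e-04). *Ppargc1a*, a coactivator reported to induce *Vegfa* apart from HIF, was higher in Control than in WT (0.71, adjusted p = 0.00134), lower in the libraries labelled CypD OE than in Control (-2.26, adjusted p = 4.67e-06), and not called in CypD KO (-0.19, adjusted p = 0.0901).

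A list of 18 oxygen-responsive genes gave the setting for *Vegfa* and *Adm*. Of 17 tested, 15 were higher and 1 was lower in CypD KO, 16 were higher and 0 were lower in Control than in WT, and 0 were higher and 16 were lower in the libraries labelled CypD OE than in Control. Among all genes tested, 30.1% were called higher and 18.4% lower in CypD KO, and 12.1% in each direction in Control against WT. In the libraries labelled CypD OE, 19.0% were called higher and 18.3% lower than in Control. The median log2 fold changes of the list were 1.35, 1.80 and -2.04, against 0.09, 0.01 and 0.0021 over all genes. For example, *Bnip3*, a mitophagy receptor, was at a mean of 12.8 TPM in the WT libraries, 253.8 TPM in those of CypD KO, 309 TPM in those of Control and 13.1 TPM in those labelled CypD OE. *Ddit4*, an inhibitor of mTORC1 signalling, was at 8.45, 39.98, 41.8 and 5.73 TPM, respectively. *Car9*, a carbonic anhydrase, was at 2.59, 7.44, 15.4 and 2.09 TPM. In each of these 3 genes the libraries labelled CypD OE, although kept at 1% O2, lay nearer to WT than to Control.

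**Figure D5:**
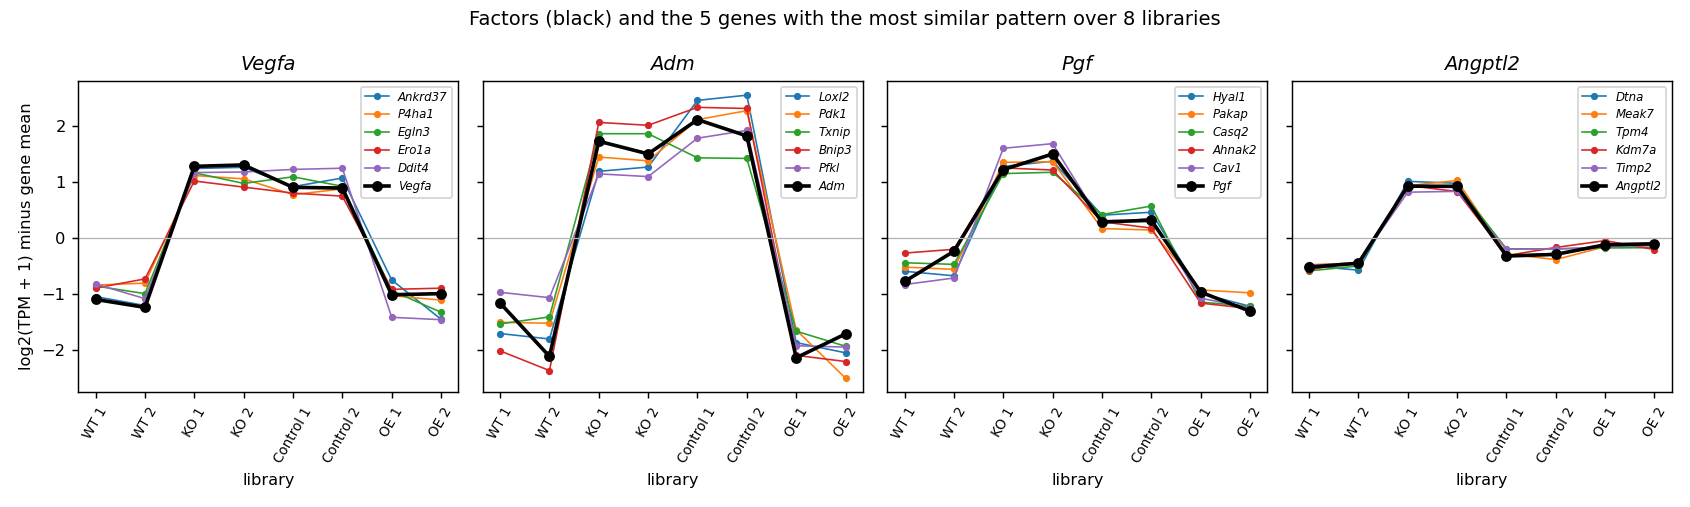
Log2(TPM + 1) in the 8 libraries, minus the mean over libraries, for *Vegfa*, *Adm*, *Pgf* and *Angptl2*, each with the 5 genes of most similar profile, where lines join libraries for reading only. The neighbours of *Vegfa* and *Adm* are low in WT and CypD OE, and those of *Angptl2* are high in CypD KO only.

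Genes of most similar profile were found for each tested factor as those with the smallest root mean square difference from it in log2(TPM + 1) over the 8 libraries, after each gene was centred on its own mean. For *Vegfa* they were *Ankrd37*, *P4ha1*, *Egln3*, *Ero1a* and *Ddit4*, at differences of 0.199 to 0.302. For *Adm* they were *Loxl2*, *Pdk1*, *Txnip*, *Bnip3* and *Pfkl*, at 0.442 to 0.481. For *Pgf* they were *Hyal1*, *Pakap*, *Casq2*, *Ahnak2* and *Cav1*, at 0.189 to 0.231, and for *Angptl2* they were *Dtna*, *Meak7*, *Tpm4*, *Kdm7a* and *Timp2*, at 0.060 to 0.076. The 4 lists share no gene. For *Vegfb*, *Vegfc* and *Angpt2*, which varied less, the nearest genes were *Lamtor1* (0.038), *Zfp125* (0.057) and *Gm20939* (0.054). With a pseudocount of 0.1, only 2 of the 5 genes remained for *Vegfa* and 2 for *Pgf*. The points of such profiles are 8 libraries from 4 groups, so they compare 4 group means and the spread within groups.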

How the data were processed

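Total RNA of 8 libraries was sequenced after ribosomal RNA depletion in paired-end reads of 150 bases. By the methods and the submitters' notes, Cutadapt 3.4 was used for trimming, STAR 2.7.8a for alignment to GRCm39, and RSEM 1.3.1 for quantification. The authors deposited TPM, scaled to 1000000 per library and written to 2 decimals for 55414 genes. The authors tested read counts with DESeq2 1.26.0, and counts were not used here. A TPM value also moves when abundant transcripts of other genes change.

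Libraries were grouped by their labels, and 0 columns were left without a sample. Log2(TPM + 1) was fitted with limma 3.58.1 in R 4.3.3 as a mean for each of 4 groups over all 8 libraries, with eBayes and a trend in mean expression. Tests were two-sided, with Benjamini-Hochberg adjustment over the 13526 genes tested and a threshold of 0.05, for 6 pairs of groups. With 2 libraries a group, the smallest p of an exact permutation test is 0.333, so none was run. The test was checked on simulated data. No comparison of groups was tested within batches, since the labels name none.

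TPM holds no total, so depth came from single-transcript genes of 600 to 3000 bases with up to 6 fragments, where 83.1% to 85.9% of values were whole to within 0.15 fragments and 30% would be if spread evenly. Fragment numbers are therefore approximate. Promoters were read from GRCm39 at the start of the canonical transcript.

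The 10 factors and the gene lists were chosen with earlier results of these data known. All 10 factors are described. From each list the text names the receptors and up to 4 called genes of largest change in any of CypD KO minus WT, Control minus WT or CypD OE minus Control, and for each tested factor the 5 genes of most similar profile. Genes listed at 0, overlapping genes, *Vwf*, *Postn*, *Col1a2*, *Fbln1*, *Lyz2*, *Hif1a*, *Tgfa* and *Fgf2* were named after their values were seen. Alternatives were a pseudocount of 0.1, a filter of 5 TPM or none, rescaling by median of ratios, a replicate block, eBayes without trend, fits of the 4 libraries compared, and leaving out each library.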

Additional observations from a re-analysis of the deposited data

How the results depend on the processing

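No call of *Vegfa*, *Adm*, *Pgf* or *Angptl2* in CypD KO against WT, or in CypD OE against Control, was lost under any alternative. Of 77 values of the 7 tested factors under alternatives, 75 kept direction and call in CypD KO against WT, 69 in CypD OE against Control and 64 in Control against WT. The calls lost were those of *Vegfb* in CypD OE against Control (adjusted p of 0.0571 without filter, 0.0575 without trend, 0.0929 in the fit of 4 libraries) and, in Control against WT, of *Pgf*, *Angptl2* and *Vegfb*. The fit of 4 libraries, with fewer libraries to estimate the spread, called 2 factors and 998 higher and 983 lower genes in Control against WT. In CypD OE it called 2 factors higher than Control and 1 higher than CypD KO. Without filter, *Angpt1* was added, so that 2 factors were higher in CypD OE than in Control, 2 than in WT and 1 than in CypD KO. Rescaling also gave 1 factor higher in CypD OE than in CypD KO, and it turned *Vegfb* in CypD KO against WT to -0.0704. Rescaling changed the genes called in CypD KO against Control from 3709 higher and 2236 lower to 3110 and 2877.

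Leaving out 1 library gave 3 to 5 higher factors in Control against WT, with 939 to 1073 higher and 983 to 1082 lower genes. In CypD OE against WT it gave 1 to 2 higher and 0 to 1 lower factors, with 1075 to 1280 higher and 1128 to 1284 lower genes, where *Vegfa* (0.23) and *Pgf* (-0.90) were called without WT replicate 1. Directions that turned were of uncalled differences. Without CypD OE replicate 2, *Vegfc* fell below Control and CypD KO, with log2 differences of -0.0423 to 0.165 and -0.0333 to 0.174 over the omissions. *Vegfc* in CypD KO against Control ranged from -0.0444 to 0.0265, the latter without Control replicate 1, *Adm* in CypD OE against WT from -0.762 to 0.187, the latter without WT replicate 1, and *Angpt2* in CypD OE against WT from -0.0636, without WT replicate 2, to 0.251. The cause was not tested. For each gene, the deviation of a library from its group mean was taken. Over the genes tested, these deviations correlated between libraries of the same replicate number at 0.108 for CypD KO and WT. The value for CypD OE and Control was -0.002. Whether libraries of the same number belong together is not stated. A replicate block gave *Pgf* in Control against WT an adjusted p of 0.0606 and changed no other call of the factors.

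With 2 libraries a group and TPM without counts, small differences are hardly detectable, as are those of *Vegfd* and *Angptl4*, with at most 13.4 and 7.6 fragments.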

Other observations

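*Angpt1*, the TIE2 agonist, stayed below the filter, but in the fit of all 24706 genes above 0 it was called higher in the libraries labelled CypD OE than in Control (log2 fold change 0.38, limma adjusted p = 0.00793) and than in WT (0.43, adjusted p = 0.00765). It was seen at 19.5 and 15.2 approximate fragments in the CypD OE libraries and at 0.0 to 3.2 in the other 6. *Vegfd* in CypD KO against WT was not called in that fit (0.49, adjusted p = 0.0601), nor was *Angptl4* (0.14, adjusted p = 0.225).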
